A study of Mus musculus with 12 samples.

Results

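The cytosolic ribosomal protein genes were examined in mouse salivary tumors that differed in p53. Members were the probe sets whose single annotated gene symbol is Rpl or Rps followed directly by a digit, or Rplp0, Rplp1, Rplp2 or Rpsa, with the Rps6k kinases left out. A probe set is a group of short oligonucleotides on the array that reads 1 transcript or several closely related ones. The rule found 101 probe sets of 49 genes among the probe sets tested, which numbered 22626. They were 50 probe sets of 20 small-subunit genes, 41 of 22 large-subunit genes, 9 of 6 copies of ribosomal protein genes (Rpl22l1, Rpl39l, Rpl3l, Rpl7l1, Rps27l and Rps4l) and 1 of the pseudogene symbol Rps15a-ps6. The suffix _x_at, which the array's maker gives to probe sets that may also bind other transcripts, is carried by 40 of them and not by the other 61. A further 102 probe sets are annotated with several symbols, a ribosomal protein among them, and were not members.

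The study compared 3 genotypes, with 4 tumors each and 1 Affymetrix mouse expression array per tumor. WT tumors came from MMTV-ras/p53+/+ mice, KO tumors from MMTV-ras/p53-/- mice and MT tumors from MMTV-ras/p53R172H/R172H mice, in which both copies of p53 carry the R172H missense change at the gene's own locus. All mice were adults, and those of every genotype, controls included, carried an Hras transgene under the MMTV promoter, which acts in mammary, salivary and some other cells. The paper reports that salivary tumors arose earliest in KO mice, later in MT mice and latest in WT mice. Age at sampling may therefore differ with genotype, and its part in the differences was not tested. The mice had a mixed BALB/c and C57BL/6 background, into which the R172H allele was brought from C57BL/6 mice. Frozen sections made up mostly of tumor were used, so stroma and leftover gland can contribute RNA. The sources used here do not say that each tumor came from its own mouse, and the p-values then describe only how these 12 tumors vary. The question was how tumors with R172H compare with tumors that lack p53 and with tumors that keep it.

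Ribosomal proteins are the protein part of the ribosome. Those named Rps sit with the 18S ribosomal RNA in the small subunit, which reads the messenger RNA, and those named Rpl sit in the large subunit, which joins amino acids. Cells that grow or secrete make them in large, matched amounts, and their messengers begin with a run of pyrimidines through which the mTOR pathway sets their translation. Several free ribosomal proteins, Rpl11 and Rpl5 best known among them, bind Mdm2, the ubiquitin ligase that holds p53 down, and Rps27l is a transcriptional target of p53.

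Some arrays stood apart before any comparison. The gene of p53 itself was not analysed here. For Mdm2, a target of p53, the WT minus KO difference was 0.80 on the log2 scale at 1 probe set (limma, adjusted p = 0.0104) and 0.27 at the other (adjusted p = 0.212). The poly-A controls, RNAs that are added to a sample before labeling, had a mean log2 level of 10.4 to 10.6 for tumors 1 to 3 of the MT group and of 3.98 to 4.23 elsewhere. The 18S ribosomal RNA controls read 7.51 to 9.33 in WT tumors, 7.36 to 8.03 in KO tumors, 6.41 to 6.59 in MT1 to MT3 and 7.66 in MT4. WT1 alone held B and plasma cell markers, with a mean level of 9.67 against 4.67 to 4.92 in the other 11 tumors, and its T cell markers read 7.33 against 5.22 to 5.79. In KO4 the actin controls had a 3' minus 5' difference of 1.05, against 0.17 to 0.59 in the rest.

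Runs of C or T were sought around the annotated starts of the members. RefSeq (GRCm38.p6) gave starts for 42 of the 49 genes, 50 starts in all. The windows printed here hold 20 bases before the annotated start and 20 bases from it on, read 5' to 3' on the strand of the gene, with the longest run of C or T in capitals. First come the genes called between WT and KO tumors, with both starts where RefSeq has 2.

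Rps9 (chr7:3704021-3704060, + strand): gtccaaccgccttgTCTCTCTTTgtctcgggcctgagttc
Rps26 (chr10:128626487-128626526, - strand): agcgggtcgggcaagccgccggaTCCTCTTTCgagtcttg
Rps15 (chr10:80292411-80292450, + strand): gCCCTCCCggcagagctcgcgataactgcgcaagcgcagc
Rpl41 (chr10:128549149-128549188, - strand): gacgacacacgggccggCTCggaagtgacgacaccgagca
Rpl10a (chr17:28328451-28328490, + strand): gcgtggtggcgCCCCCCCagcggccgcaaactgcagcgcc
Rpl10a, the second start (chr17:28328545-28328584, + strand): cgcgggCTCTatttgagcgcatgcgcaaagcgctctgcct
Rpl22 (chr4:152324416-152324455, + strand): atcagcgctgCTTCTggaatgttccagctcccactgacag
Rpl22, the second start (chr4:152325706-152325745, + strand): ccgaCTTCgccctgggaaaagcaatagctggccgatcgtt

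For comparison, these are Rps6, whose probe set 1416142_at differed most between MT4 and the other MT tumors, the p53 target Rps27l with its first start, and members with long runs.

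Rps6 (chr4:86857348-86857387, - strand): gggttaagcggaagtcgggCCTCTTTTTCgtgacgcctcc
Rps27l (chr9:66946066-66946105, + strand): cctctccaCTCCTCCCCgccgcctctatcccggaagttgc
Rpl35 (chr2:39005112-39005151, - strand): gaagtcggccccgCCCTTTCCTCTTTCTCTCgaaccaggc
Rpl27a (chr7:109519175-109519214, + strand): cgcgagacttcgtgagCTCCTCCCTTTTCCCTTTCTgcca
Rpl7a (chr2:26910787-26910826, + strand): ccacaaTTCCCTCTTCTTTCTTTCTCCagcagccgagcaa

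The longest run was 21 bases at Rpl7a, 20 at Rpl27a and 18 at Rpl35, but 3 at Rpl41 and 5 at the first start of Rpl22. Within 20 bases on either side, a run of 7 or more was present at 28 of 50 member starts (56.0%). Over the 32851 starts of all genes the share was 24.3%. Some runs, such as those of Rps15, Rps27l and the first start of Rpl10a, lay wholly before the start, outside the annotated messenger. These shares therefore do not count messengers that begin with such a run. The motif CCGGAAG, which holds the core that Ets family factors bind, was found on either strand of the 300-base promoter at 21 of the 50 starts (42.0%), against 8.86% of all promoters. The TATA box letters TATAAA, searched in the same way, were found at 6 (12.0%), against 13.6%. These are matches of letters around annotated starts, and the arrays measured neither starts nor translation.

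Most members were bright on these arrays. The mean log2 level over the 12 tumors lay between 3.94 and 13.06, with 53 of 101 probe sets above 12 and 20 below 6.93, the median of all values. Levels of different probe sets are not set against each other here, because each binds with its own strength. In bulk tumors, fewer cells of a type and less RNA per cell cannot be told apart.

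More ribosomal protein probe sets were higher in WT than in KO tumors than lower. The median WT minus KO difference over the 101 probe sets was 0.24 on the log2 scale, against 0.02 over all probe sets tested, and 81 of 101 lay above 0 (80.2%, against 52.6% of all). With limma and adjustment over all probe sets tested, 7 members (6.93%) passed 0.05 as higher in WT tumors, where 2.64% of all probe sets did. By the same test 0 members were lower, against 1.94% of all. At an unadjusted p under 0.05, 36 members were higher in WT (background 13.5%) and 1 was lower (background 10.5%), the pseudogene symbol Rps15a-ps6 at -0.40 (adjusted p = 0.0787). The values of WT and KO tumors did not overlap in 15 members that were higher in WT (14.9%, background 8.37%) and in 0 that were lower (background 6.10%). Of all 215 probe sets with a mean level above 12, 60% lay above 0 and 3.72% were called higher in WT. These 215 include the members above 12 and many of the probe sets annotated with several symbols, a ribosomal protein among them. Of the 53 members above 12, 84.9% lay above 0 and 9.43% were called higher.

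When each member was centered on its own mean, the median member read 0.34, 0.04, 0.17 and 0.11 in WT1 to WT4, -0.01, -0.14, -0.03 and -0.12 in KO1 to KO4, and -0.12, -0.10, 0.01 and 0.01 in MT1 to MT4. WT1 stood highest and WT2 lowest among the WT tumors, and all 4 WT tumors were above all KO and MT tumors. WT1 held the highest value of the 12 tumors in 50 of 101 members, where it did so in 10.7% of all probe sets, and KO4 held the lowest in 29, against 14.5%. The median WT minus KO difference was 0.24 over the 50 small-subunit probe sets, with 4 called, and 0.21 over the 41 large-subunit probe sets, with 3 called.

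**Figure D1:**
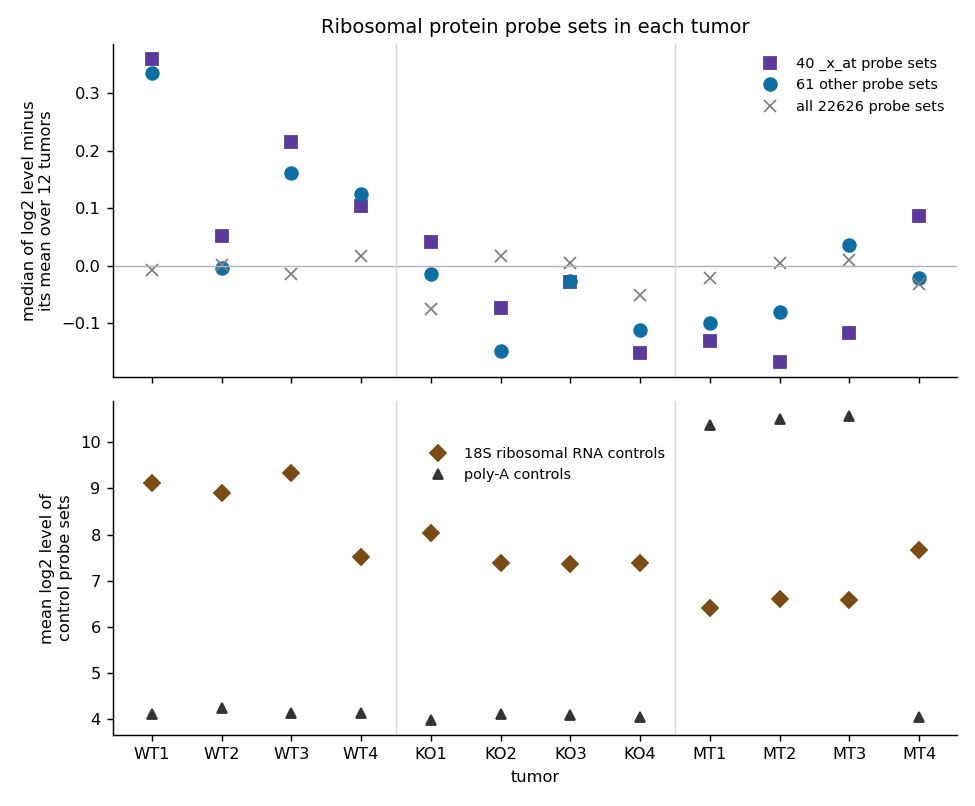
Upper panel: median log2 level of the 40 _x_at and 61 other ribosomal protein probe sets and of all probe sets tested in each of the 12 tumors, each probe set first centered on its mean. Lower panel: mean log2 level of the 18S ribosomal RNA and poly-A control probe sets; WT1 has the highest members, and MT1 to MT3 have the highest poly-A and the lowest 18S controls.

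**Figure D2:**
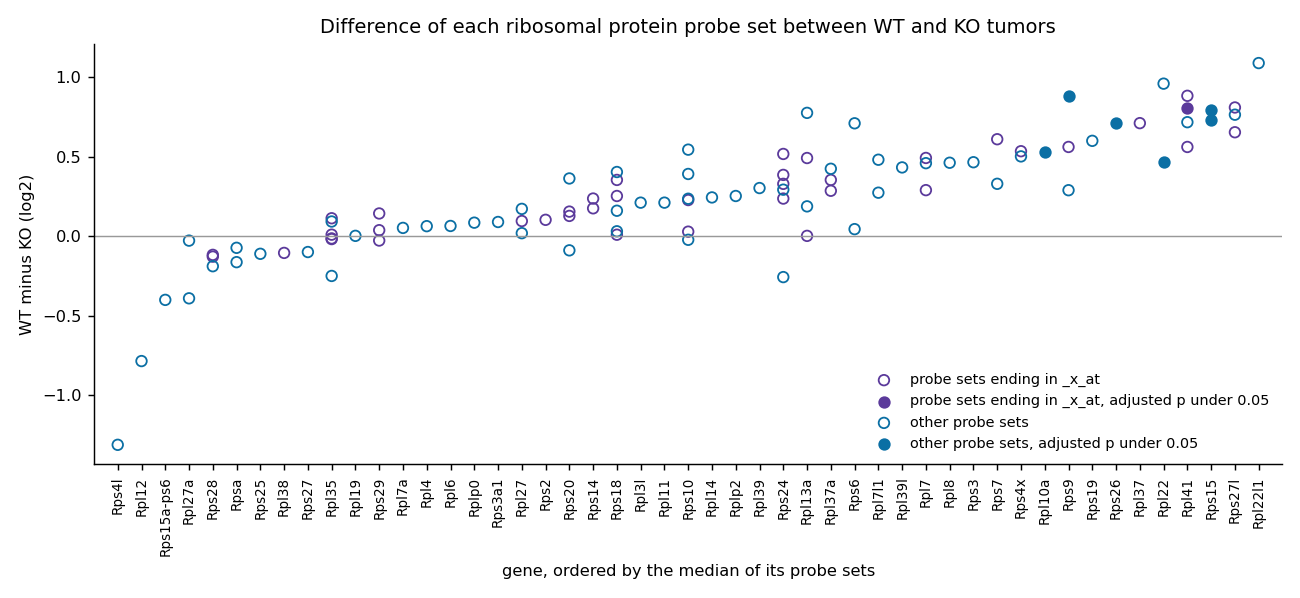
WT minus KO difference on the log2 scale of each of the 101 probe sets, by gene, with 4 tumors per genotype; purple circles are _x_at probe sets, blue circles the others, and filled circles have an adjusted p under 0.05. Of the 101 circles, 81 lie above 0, and the 7 filled ones lie between 0.47 and 0.89.

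Rps9, which lines the channel where the messenger enters the small subunit, had the smallest p of the members. Its probe set 1433689_s_at read 12.89, 12.54, 12.67 and 12.76 in WT1 to WT4, 12.06, 11.58, 12.07 and 11.59 in KO1 to KO4, and 12.30, 12.61, 12.35 and 12.23 in MT1 to MT4. Every WT tumor lay above every KO tumor, and 3 of the 4 MT tumors lay between both groups. The difference was 0.89 ± 0.15 (SE, n = 4 per group), with an adjusted p of 0.0148 by limma.

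Rps26 helps hold the messenger where it leaves the small subunit. It read 12.89, 12.40, 12.67 and 12.68 in WT tumors, 12.20, 11.71, 12.12 and 11.75 in KO tumors and 12.21, 12.26, 12.55 and 12.19 in MT tumors. The WT and KO tumors did not overlap, with a difference of 0.71 ± 0.15 (SE) and an adjusted p of 0.0268. Rps15, a protein of the small subunit's head close to the decoding site, was called at both of its probe sets. At 1416089_at the WT tumors read 12.74, 12.28, 12.49 and 12.56, the KO tumors 11.86, 11.87, 12.14 and 11.27 and the MT tumors 11.93, 12.10, 12.28 and 12.05. KO4 was the lowest of the 12, and the WT minus KO difference was 0.73 ± 0.17 (adjusted p = 0.0404). At 1416088_a_at that difference was 0.80 ± 0.19 (adjusted p = 0.0409), with a WT mean of 12.40 ± 0.21 (SD, n = 4), a KO mean of 11.60 ± 0.33 and an MT mean of 11.60 ± 0.29.

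Rpl41, a very small basic peptide of the large subunit, was called at 1 of its 4 probe sets. Probe set 1455578_x_at read 13.12, 12.91, 13.07 and 13.02 in WT tumors, 12.27, 12.33, 12.50 and 11.80 in KO tumors and 12.97, 12.98, 13.06 and 12.34 in MT tumors. MT1 to MT3 lay within the range of the WT tumors and MT4 within that of the KO tumors. The WT minus KO difference was 0.81 ± 0.18 (adjusted p = 0.0326). The other 3 probe sets of Rpl41 had differences of 0.56 to 0.88, with adjusted p of 0.0655 to 0.12.

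Rpl10a builds the flexible L1 stalk beside the site where spent transfer RNA leaves. It read 13.05, 12.70, 12.88 and 12.88 in WT tumors, 12.57, 12.27, 12.50 and 12.04 in KO tumors and 12.39, 12.46, 12.62 and 12.59 in MT tumors. The WT tumors lay above all others, and WT minus KO was 0.53 ± 0.13 (adjusted p = 0.0432). Rpl22, which T cell development needs, read 11.44, 11.15, 11.30 and 11.25 in WT tumors at 1416603_at, 10.95, 10.80, 10.72 and 10.78 in KO tumors and 10.71, 11.21, 11.06 and 10.995 in MT tumors. No KO tumor reached the WT range, and the difference was 0.47 ± 0.12 (adjusted p = 0.0475). At the second probe set of Rpl22, 1448398_s_at, it was 0.96 ± 0.36 (adjusted p = 0.135).

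**Figure D3:**
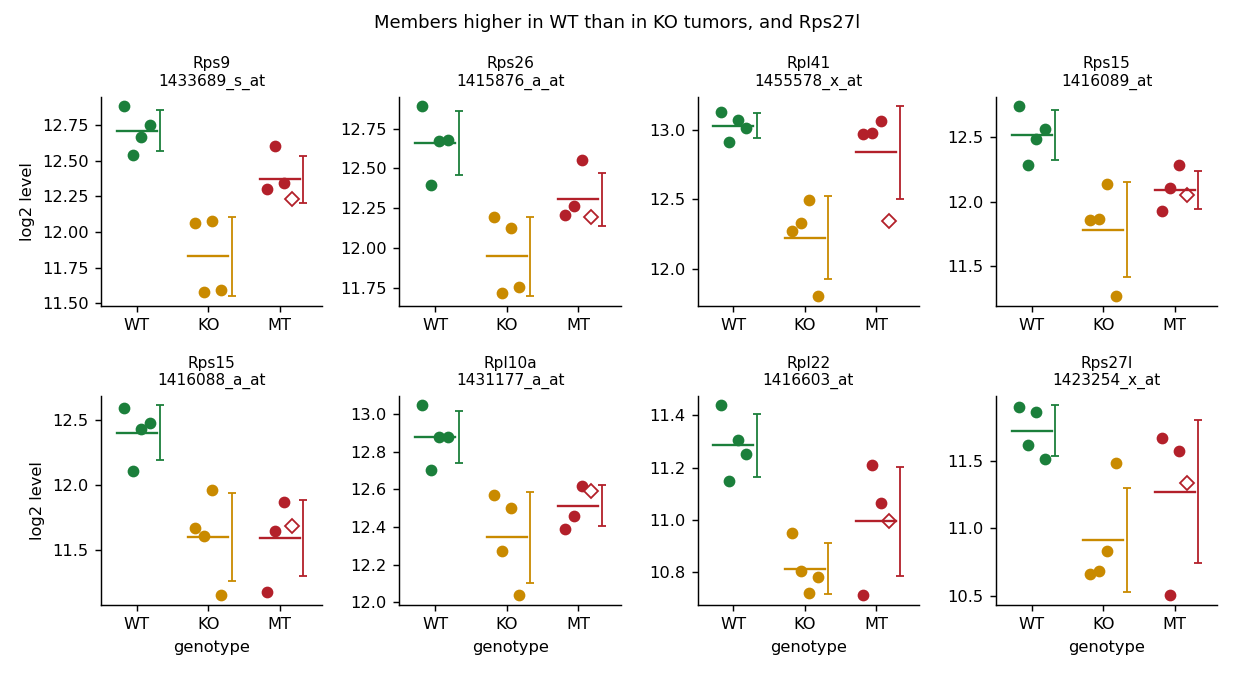
Log2 level in each tumor of the 7 probe sets called higher in WT than in KO tumors and of Rps27l, by genotype (points are tumors, the open diamond is MT4, the line is the mean and the bar 1 SD, n = 4). WT and KO tumors do not overlap in any panel, and in Rps27l KO4 (11.48) lies just under the lowest WT tumor (11.52).

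Other members came near the threshold without passing it. The WT minus KO difference was 0.55 for Rps10 at 1416719_a_at (adjusted p = 0.0547), 0.71 for Rpl37 (0.0713), 0.54 for the X-linked Rps4x at 1420303_x_at (0.0712) and 0.46 for Rpl8, which lies close to the catalytic center (0.072). For Rpl19 the difference was 0.00 ± 0.16, and the 6 probe sets of Rpl35 lay between -0.25 and 0.11. The lowest differences were those of Rps4l, Rpl12 and Rps15a-ps6, followed by Rpl27a at 1437729_at (-0.39, adjusted p = 0.386) and Rps24 at 1455195_at (-0.26, 0.741). Rpl12, a protein of the stalk base, differed by -0.78 ± 0.44 (adjusted p = 0.307), and its WT tumors spread from 5.999 to 8.55.

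Of the 7 called probe sets, 4 belong to genes on chromosome 10: both of Rps15, that of Rps26 and 1 of Rpl41. Rps26 and Rpl41 are near neighbors there, as the start coordinates above show. All 7 member probe sets of chromosome 10 had WT minus KO differences between 0.56 and 0.88, with a median of 0.73. Over the other 916 probe sets of the chromosome the median was 0.22, and of all its 923 probe sets 12.1% were called higher in WT. On the other chromosomes that hold members that share was at most 4.06%. Without the chromosome 10 genes, 3 called members were left (Rps9, Rpl10a and Rpl22), and the median difference over 94 probe sets was 0.22. Mdm2 is a gene of chromosome 10 too.

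**Figure D4:**
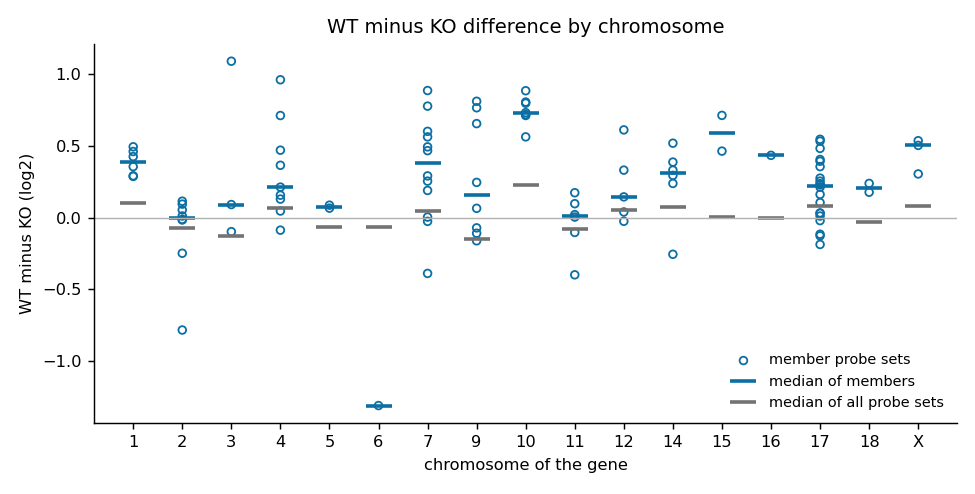
WT minus KO difference on the log2 scale of the member probe sets by chromosome of the gene (circles), with their median (blue bar) and the median of all probe sets of that chromosome (gray bar). The members of chromosome 10 lie at 0.56 to 0.88, above the chromosome's own median of 0.23, and the members of chromosome 11 have a median of 0.01.

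The WT to KO difference was refitted with other measures as covariates and with single tumors left out. With the 18S control level as a covariate, 0 members were called by limma and 11 probe sets in all, and the members' median difference was 0.15. The main fit had called 597 of all probe sets higher and 438 lower. The 18S controls read 9.11, 8.90, 9.33 and 7.51 in WT1 to WT4 and 7.36 to 8.03 in KO tumors. This covariate thus partly follows genotype. With the actin 3' minus 5' difference as a covariate, 7 members were called and the median was 0.24. Without WT1, Rps9 alone stayed under the threshold (adjusted p = 0.0449) and the median was 0.18. Rps9 was likewise the single call without WT3, KO2 or KO4 (adjusted p = 0.0433, 0.0369 and 0.0301), with a median of 0.23 in each case.

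Cell type markers were read in the same tumors. Markers of salivary acini and demilunes, with 6 of 8 listed genes measured, had a mean log2 level of 10.46 to 10.97 in WT tumors, 8.18 to 9.10 in KO tumors and 9.004 to 10.001 in MT tumors. Macrophage markers, with 5 of 5 genes measured, read 9.21 to 9.70, 8.37 to 8.94 and 8.39 to 9.51 in the same order. Luminal duct markers, with 6 of 6 measured, read 9.80 to 11.33, 11.10 to 11.36 and 10.52 to 11.36. T cell markers, with 4 of 5 measured, read 5.57 to 7.33, 5.22 to 5.52 and 5.52 to 5.61, and skeletal muscle markers, with 4 of 4, read 5.13 to 5.45, 4.89 to 5.001 and 4.90 to 6.31. WT and KO tumors did not overlap in the acinar, macrophage, T cell and muscle markers, all higher in WT, and overlapped in the remaining lists. The part of these cells in the ribosomal protein values was not tested. All WT and KO tumors had low poly-A controls.

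The copies of ribosomal protein genes gave no call, and several varied widely between tumors. Rps27l, the p53-responsive copy of Rps27, was read by 3 probe sets. At 1423254_x_at the WT tumors read 11.91, 11.62, 11.86 and 11.52, the KO tumors 10.66, 10.68, 10.83 and 11.48 and the MT tumors 11.67, 10.50, 11.58 and 11.34. KO4 stood above the other KO tumors and MT2 below the other MT tumors, at all 3 probe sets. The WT minus KO difference was 0.81 ± 0.26 (adjusted p = 0.0905), and 0.66 and 0.77 at the others (adjusted p = 0.144 and 0.14). The parent gene Rps27 differed by -0.10 (adjusted p = 0.685) at its single probe set.

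Rpl22l1, which can take the place of Rpl22 in the large subunit, had the highest difference of all members. The WT tumors read 12.12, 11.56, 11.90 and 11.27, the KO tumors 11.33, 9.69, 11.09 and 10.38 and the MT tumors 10.58, 9.52, 9.90 and 10.53. All MT tumors lay below all WT tumors, while KO1 overlapped the WT range. WT minus KO was 1.09 ± 0.36 (adjusted p = 0.101), and MT minus WT was -1.58 ± 0.36 (adjusted p = 0.0734). Rps4l, which RefSeq lists as a transcribed pseudogene, had the lowest WT minus KO difference, -1.31 ± 0.66 (adjusted p = 0.254). It read 5.31, 4.76, 5.13 and 4.80 in WT tumors, 5.38, 6.69, 8.35 and 4.83 in KO tumors and 6.86, 6.62, 7.68 and 5.55 in MT tumors. All MT tumors were above all WT tumors, and MT exceeded WT on average by 1.67 ± 0.66 (adjusted p = 0.207).

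The remaining copies lay closer to 0. WT minus KO was 0.48 and 0.28 for Rpl7l1, 0.43 for the testis-enriched Rpl39l and 0.21 for Rpl3l, the form of striated muscle, with adjusted p of 0.12 to 0.315. Among the parents, Rps4x had differences of 0.50 and 0.54 and Rpl7 of 0.29 to 0.49. Rpl39 differed by 0.30, with WT and KO tumors apart (adjusted p = 0.0915).

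Of the members listed as meeting Mdm2 or p53 (Rpl11, Rps3, Rps7, Rps14, Rps27 and Rps27l), none passed the test in any comparison. Rps15, called at both probe sets, has also been reported to bind Mdm2, as have Rps20 and Rpl37. These were not on that list, which may leave out other members too. Rps3, which also has a part in DNA repair, read 12.56, 12.15, 12.41 and 12.54 in WT tumors, 11.95, 12.09, 12.002 and 11.74 in KO tumors and 12.18, 12.73, 12.17 and 12.22 in MT tumors. Both WT and MT tumors lay above all KO tumors, with a WT minus KO difference of 0.47 (adjusted p = 0.0917) and an MT minus KO difference of 0.38 (adjusted p = 0.449). WT minus KO was 0.21 for Rpl11 (adjusted p = 0.538), 0.33 and 0.61 for Rps7 (0.237 and 0.134) and 0.24 and 0.18 for Rps14 (0.307 and 0.478). A probe set shared by Rps7 and Gm7285, not a member, was called higher in WT tumors and is described below. Rpl5, Rpl23, Rpl26 and Rps27a were not among the members. The stalk proteins Rplp0 and Rplp2, which recruit translation factors, had differences of 0.09 and 0.25 (adjusted p = 0.694 and 0.231). Rpsa, the small-subunit protein also known as the laminin receptor, had differences of -0.16 and -0.07 (adjusted p = 0.698 and 0.737).

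Probe sets of the same gene did not always move together. Of the 49 genes, 23 had more than 1 probe set, up to 6. The WT minus KO differences of 1 gene spread most for Rps24, from -0.26 to 0.52, for Rpl13a, from 0.00 to 0.78, and for Rps6, from 0.05 to 0.71. Rps9, called at 1433689_s_at, had a difference of 0.56 at 1434624_x_at (adjusted p = 0.355) and of 0.29 at 1426958_at (0.735). The median WT minus KO difference was 0.24 over the _x_at members, 1 of 40 called higher (2.50%, against 3.44% of all _x_at probe sets), and 0.25 over the others, 6 of 61 called higher (9.84%, against 2.58%). Over all probe sets tested it was 0.04 for _x_at and 0.02 for the others. In MT minus WT the medians were -0.23 for the _x_at members and -0.20 for the others, beside -0.13 and 0.00 over all probe sets tested.

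Between MT and KO tumors no member passed the test. The median MT minus KO difference was 0.01, against 0.02 over all probe sets, and 53 of 101 lay above 0. By limma 0 members were called higher (background 0.00884%) and 0 lower (background 0%), and an unmoderated test of each probe set and SAM at a 5% false discovery rate also gave 0. At an unadjusted p under 0.05, 7 were higher in MT (background 5.01%) and 8 lower (background 4.57%). The tumors did not overlap in 2 members that were higher in MT, Rps9 at 1433689_s_at and Rps3 (background 2.88%), and in 1 that was lower, the dim Rpl27a probe set 1419799_at (background 1.97%). Taking each gene at its most extreme probe set, the highest differences were those of Rpl41 at 1422623_x_at (0.75, adjusted p = 0.364), Rpl27a at 1437729_at (0.68), Rps9 at 1433689_s_at (0.54, adjusted p = 0.281), Rps10 (0.41) and Rps3 (0.38). The lowest were those of Rps6 at 1416142_at (-0.86), Rps9 at another probe set, 1434624_x_at (-0.81), Rpl27 at 1448217_a_at (-0.74), Rpl22l1 (-0.49) and Rps20 at 1456373_x_at (-0.48). Rps9 thus stood among both, by probe set.

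Between MT and WT tumors more members were lower in MT than higher, but none passed the adjusted threshold. The median MT minus WT difference was -0.22, against -0.01 over all probe sets, and 18 of 101 lay above 0. By limma 0 members were called higher (background 0.177%) and 0 lower (background 0.190%). At an unadjusted p under 0.05, 31 members were lower in MT tumors (30.7%, background 10.4%) and 2 were higher (background 8.97%). Of all 215 probe sets with a mean level above 12, 40 were lower and 14 higher at that threshold. As said above, the 215 include members and many probe sets with several symbols, a ribosomal protein among them. Of the 53 members above 12, 15 were lower and 0 higher. SAM at 5% called 14 lower (13.9%, background 3.73%) and 1 higher (background 2.46%), and the unmoderated test called 0 after adjustment. The tumors did not overlap in 13 members that were lower in MT (12.9%, background 6.44%) and in 1 that was higher, Rps4l (background 4.44%).

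Besides Rpl22l1, the lowest MT minus WT differences, again by the most extreme probe set of each gene, were those of Rps6 at 1416142_at (-1.57 ± 0.35, adjusted p = 0.0705), Rps9 at 1434624_x_at (-1.37, 0.0937), Rpl13a at 1433928_a_at (-0.97, 0.157) and Rpl27 at 1448217_a_at (-0.91, 0.0653). Besides Rps4l, the highest were those of Rpl27a at 1437729_at (1.06, adjusted p = 0.0805), Rpl12 (0.75), Rps25 (0.47) and Rpl35 at 1454833_at (0.28). The comparisons of WT with KO and of MT with WT share the 4 WT arrays. With the poly-A split as a block, MT4 alone carries the MT effect, on the assumption that single MT tumors scatter like those of the remaining groups, and the medians were then -0.12 for MT minus WT and 0.10 for MT minus KO. In MT1 to MT3 genotype and the poly-A split cannot be told apart.

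MT4 read apart from MT1 to MT3 in some members. It lay above all of MT1 to MT3 in 38 of 101 members (37.6%, background 27.7%) and below all of them in 25 (24.8%, background 35.4%). Among the _x_at members it lay above in 21 of 40 (52.5%, against 38.3% of all _x_at probe sets), and among the others in 17 of 61 (27.9%, against 26.9%). It lay more than 0.5 above their mean in 13 members (12.9%, background 13.2%) and more than 0.5 below it in 5 (4.95%, background 11.0%). Its median difference from MT1 to MT3 was 0.20 over the _x_at members and 0.02 over the others, beside 0.06 and -0.05 over all _x_at and other probe sets.

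Rps6, the protein that S6 kinase phosphorylates, showed the widest upward gap. At 1416142_at it read 9.66, 9.21, 9.52 and 8.995 in WT tumors, 9.04, 8.30, 8.64 and 8.56 in KO tumors and 7.77, 7.45, 6.94 and 8.96 in MT tumors. For Rps9 at 1434624_x_at the levels were 12.29, 11.64, 12.11 and 11.15 (WT), 11.55, 10.87, 11.20 and 11.34 (KO) and 10.11, 10.22, 9.88 and 11.52 (MT). In both, MT4 lay within the range of the KO tumors and MT1 to MT3 lay below every WT and KO tumor. The other Rps9 probe sets did not share this. At 1433689_s_at the MT tumors read 12.30, 12.61, 12.35 and 12.23, with KO tumors at 11.58 to 12.075. At 1426958_at they read 6.37, 6.83, 6.08 and 6.25, with KO tumors at 5.73 to 7.60. Probe sets shared by Rps6 and Rps6-ps4 were mixed. The bright 1416141_a_at read 13.29, 13.51, 13.32 and 13.29 in MT tumors, with KO tumors at 13.05 to 13.32. At 1435816_at the MT tumors read 8.75, 9.04, 8.79 and 9.54, with KO tumors at 9.09 to 9.57. Both were chosen after their values were seen.

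Rps20, a protein of the small subunit's head, read 11.86, 11.95, 11.92 and 12.79 in MT1 to MT4 at 1456373_x_at, with WT tumors at 12.51 to 12.95 and KO tumors at 12.44 to 12.78. The large-subunit protein Rpl27 read 10.36, 10.30, 10.35 and 11.02 at 1448217_a_at, with WT tumors at 11.11 to 11.76 and KO tumors at 10.92 to 11.41. At another probe set, 1416099_at, it read 12.07, 12.31, 12.25 and 12.13, with WT tumors at 12.18 to 12.27. At the third, 1453096_x_at, it read 10.80, 10.84, 10.99 and 11.54, with WT tumors at 11.42 to 11.93 and KO tumors at 11.17 to 11.73. MT1 to MT3 lay below every WT and KO tumor at 2 of the 3 probe sets of Rpl27 and not at 1416099_at. Rpl27a at 1437729_at was lower in MT4, with 8.73, 8.77, 8.72 and 7.74 in the MT tumors.

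Without MT4, all remaining MT tumors have high poly-A controls. The fit then called 1 member higher in MT than in WT tumors (background 1.76%), Rpl27a at 1437729_at, by 1.32 (adjusted p = 0.0131). At the other member of Rpl27a, the dim 1419799_at, the difference was -0.16 (adjusted p = 0.378). A probe set of Rpl27a and other symbols, 1426661_at, averaged 12.33 in MT1 to MT3 and 12.52 in WT tumors. It was added after its values were seen. The same fit called 11 probe sets of 8 genes lower (10.9%, background 1.78%). Among these the differences were -1.96 for Rps6 at 1416142_at (adjusted p = 0.00472), -1.73 for Rps9 at 1434624_x_at (0.0111) and -1.71 for Rpl22l1 (0.0444). At the other member of Rps6, the dim 1453466_at, the difference was -0.16 (0.563). For Rps9 it was -0.30 at 1433689_s_at (0.31) and -0.29 at 1426958_at (0.778). The remaining calls belong to Rpl27, Rps20, Rpl7, Rps24 and Rpl37a. Against KO tumors the fit called 1 member higher (background 0.495%), Rpl41 at 1455578_x_at, by 0.78 (adjusted p = 0.043). It called 3 lower (background 0.544%), Rps6 at 1416142_at by -1.25 (adjusted p = 0.0415), Rpl27 at 1448217_a_at by -0.91 (0.0427) and Rps20 at 1456373_x_at by -0.70 (0.0399).

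**Figure D5:**
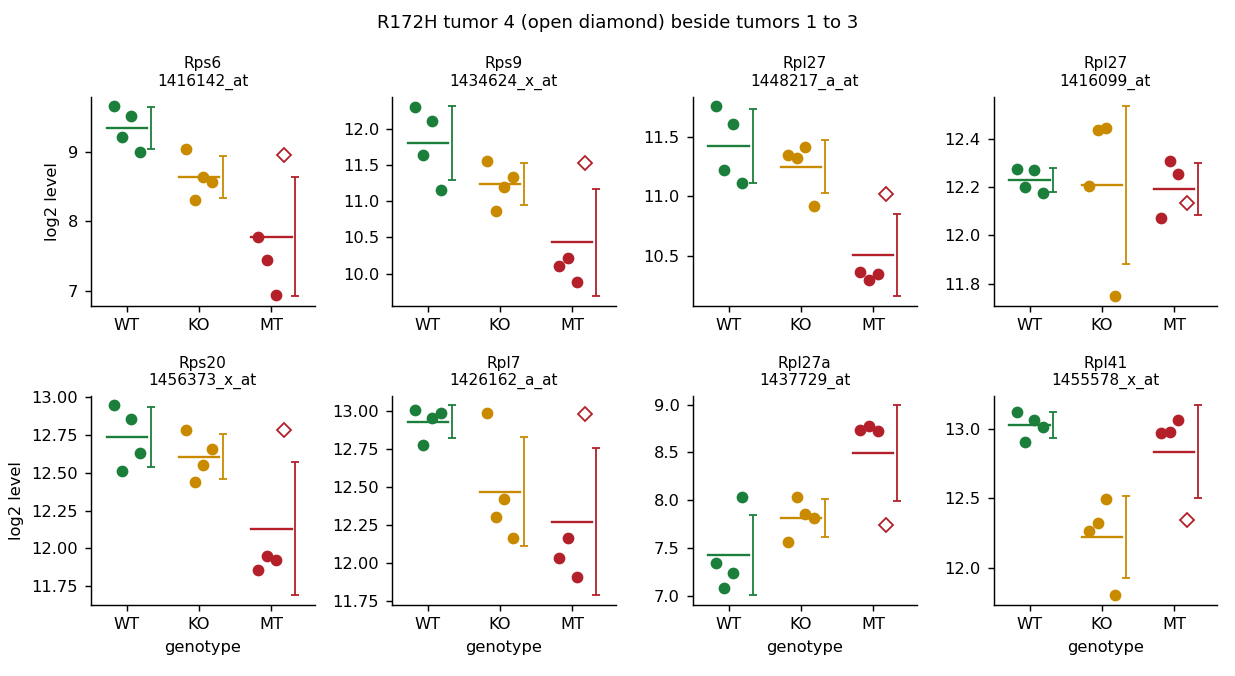
Log2 level in each tumor for 8 member probe sets, by genotype (points are tumors, the open diamond is MT4, the line is the mean and the bar 1 SD, n = 4). MT4 lies outside the range of MT1 to MT3 in 7 panels and within it in Rpl27 at 1416099_at, and in Rpl41 it reads 12.34 beside KO tumors at 11.80 to 12.50.

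Genes that build and serve the ribosome were described from lists, whose counts stand beside the 2.64% of all probe sets called higher in WT than in KO tumors and the 1.94% called lower. Of 74 probe sets for ribosome assembly factors, 2 were called higher (2.70%, a share near that of all probe sets) and 1 lower, with a median of 0.17. They were the small-subunit assembly factor Ltv1 (1.06, adjusted p = 0.00861), the RNA helicase Ddx21 (0.97, 0.00861) and, lower, Sbds, which helps free Eif6 from the large subunit (-0.68, 0.0326). Of 24 RNA polymerase I probe sets limma called 0, with 6 higher in WT and 1 lower at an unadjusted p under 0.05 (background 13.5% and 10.5%) and a median of -0.06. Translation initiation had 4 of 79 higher (5.06%) and 1 lower, with a median of 0.10. Eif4ebp2, which holds back cap binding (0.92 at 1417084_at, adjusted p = 0.0219), and Eif4b (0.71, 0.0365) were higher and Eif2s2 lower (-0.93, 0.044). Elongation and release had 2 of 21 higher (9.52%) and 0 lower, with a median of 0.25, namely Eef2, which moves the ribosome along the messenger (0.86, 0.0208), and Eef2k, the kinase that inhibits it (0.89, 0.0163).

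Mitochondrial ribosomal proteins, which build the separate ribosome of that organelle, had 5 of 127 probe sets higher (3.94%, against 2.64% of all) and 0 lower (against 1.94%), with a median of 0.11. The largest differences among those called were those of Mrpl48 (0.90, adjusted p = 0.0239), Mrpl42 (0.85, 0.0377) and Mrpl16 (0.73, 0.0198). Of the 13 listed probe sets called higher in WT, 6 lie on chromosome 10, beside 112 of all 597 probe sets called higher in WT. Between MT and WT tumors 1 listed probe set was called, Eef1d at 1439439_x_at, lower in MT (-0.86, adjusted p = 0.0358). Fau, a small-subunit protein whose symbol the rule does not take, had a WT minus KO difference of 0.30 and was not called.

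The 102 probe sets with several symbols cannot be assigned to 1 gene. Their median WT minus KO difference was 0.14, 77 lay above 0, and 7 were called higher (6.86%, against 2.64% of all) and 0 lower by limma. Those named next were chosen after their values were seen. The probe set of Rps7 and Gm7285 had a difference of 1.29 (adjusted p = 0.0262), and 2 probe sets of Rps12 and its pseudogenes had 0.77 and 0.67 (0.0176 and 0.0139). The median was -0.21 for MT minus WT and -0.11 for MT minus KO, with 0 called by limma in either. At an unadjusted p under 0.05, 42 were lower and 0 higher in MT than in WT tumors (background 10.4% and 8.97%), and 13 were lower and 5 higher in MT than in KO tumors (background 4.57% and 5.01%).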

How the data were processed

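RNA from 12 frozen salivary tumors was labeled from oligo(dT)-primed cDNA and read on Affymetrix mouse expression arrays. The deposited values are on a log2 scale. The methods describe RMA, in which the authors corrected the background, quantile normalized the arrays and summarized probes by median polish. GEO's tool list for these samples holds RMA and MAS5, with no version. Quantile normalization makes array distributions alike, so a shift shared by all genes cannot be seen. The number of arrays, 4 per genotype, limits precision.

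Of 22690 probe sets, 64 controls were left out. A mean per genotype was fitted to the 12 arrays (R 4.3.3, limma 3.58.1, lmFit and eBayes, 9 residual degrees of freedom). P-values are 2-sided and were adjusted by the Benjamini-Hochberg method over the 22626 probe sets, with a threshold of 0.05. The steps were tested on simulated data. Symbols came from the array annotation, and chromosomes and starts from RefSeq GRCm38.p6, in which all 101 members kept their symbol. Figures and sequence searches used Python 3.11.15, pandas 2.3.3 and matplotlib 3.10.9.

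Members and lists were chosen with earlier results of these data known. The text names every called member, and the 5 highest and 5 lowest differences of each comparison (each gene at its most extreme probe set). It also names members listed beforehand as meeting Mdm2 or p53, the stalk proteins, Rpsa and copies with their parents. The 3 genes whose probe sets spread most and up to 3 called genes per list are named too. A few members near the threshold or shown for contrast were added after their values were seen. Same-numbered tumors of different genotypes deviated together with a correlation above 0.1 in 6 of 12 pairs (range 0.0023 to 0.335). Differently numbered tumors of different genotypes ranged from -0.268 to 0.270. The only such pairs above 0.1 were WT3 with MT1 (0.137), WT4 with MT2 (0.118), KO1 with MT4 (0.270) and KO3 with MT1 (0.159). The titles give replicate numbers but state no pairing, and the main fit did not pair tumors. Whether the numbers stand for something shared was not tested, and a fit with a replicate block is given among the alternatives. The poly-A split is called a labeling batch in the closing section, but no source names one. Alternatives covered the filter, scaling, fit, test, threshold, probe set type and each left-out tumor.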

Additional observations from a re-analysis of the deposited data

Results flagged for a closer look

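Among the members named here and their median, 171 groups of 4 tumors were examined, and in 12 of them 1 tumor lay so far off that its gap to the nearest other tumor took more than 0.829 of the group's range. Chance alone gives about 1 in 20 such groups. MT4 was the separate tumor for Rpl41 at 1455578_x_at (12.34, others 12.97 to 13.06) and at 1422623_x_at (12.44, others 12.996 to 13.11), Rpl27a at 1437729_at (7.74, others 8.72 to 8.77), Rpl27 at 1448217_a_at (11.02, others 10.30 to 10.36) and Rps20 at 1456373_x_at (12.79, others 11.86 to 11.95). KO4 was the separate tumor for Rpl11 (12.04, others 12.38 to 12.42) and for Rps27l at 1435429_x_at (11.64, others 10.80 to 10.88) and at 1450925_a_at (11.46, others 10.56 to 10.62). MT2 stood apart for Rps3 (12.73, others 12.17 to 12.22) and for Rps27l at 1435429_x_at (10.39, others 11.27 to 11.45). KO1 stood apart for Rps10 at 1416719_a_at (12.78, others 12.17 to 12.27), and MT1 for Rpl22 at 1448398_s_at (8.44, others 9.15 to 9.28).

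The poly-A controls enter no comparison, and the lowest of MT1 to MT3 read 10.4, against 3.98 to 4.23 in the other tumors.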

How the results depend on the processing

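The 7 members called between WT and KO tumors became 11 with arrays centered on their medians, 35 with array weights (34 higher, 1 lower, background 7.92% and 6.58%), 14 with SAM at 5% (all higher, background 5.32%) and 18 at an adjusted p under 0.1 (17 higher, 1 lower, background 6.46% and 4.77%). They became 2 in a fit to the 8 tumors compared, 3 without the chromosome 10 members, and 0 with an unmoderated test of each probe set, at an adjusted p under 0.01 and with the 18S covariate. With 1 tumor left out the count was 1 to 9, namely 1 without WT1, WT3, KO2 or KO4 and 3 without MT3. For MT minus WT the count of 0 became 35 with array weights (3 higher, 32 lower, background 11.0% each), 15 with SAM and 7 at an adjusted p under 0.1, and 0 to 12 with 1 tumor left out (1 without WT2, 6 without WT4 and 12 without MT4). For MT minus KO it was 0 to 4 with 1 tumor left out, the 4 without MT4. The median MT minus WT difference moved to -0.12 with the labeling batch as a block and to -0.0935 with the 18S covariate. With a replicate block on the tumor number, 5, 0 and 0 members were called for WT minus KO, MT minus KO and MT minus WT. The other settings (dim probe sets left out, cyclic loess, trend and robust moderation, labeling batch block, 1 probe set per gene, _x_at or _s_at left out, copies left out and the actin covariate) gave 5 to 8 members for WT minus KO (1 of them lower under trend and robust moderation) and 0 for the other comparisons. No difference that passed a test changed sign, and the medians were not tested. The causes were not tested. The chromosome 10, actin and 18S settings were chosen after seeing the data.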
